A study of Mus musculus with 18 samples.

Results

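Synaptotagmins are membrane proteins of secretory vesicles that carry a tandem pair of calcium- and lipid-binding C2 domains. Members that bind calcium act as sensors that trigger fusion of the vesicle with the plasma membrane through the SNARE proteins, and several members bind no calcium and serve in vesicle traffic instead. In the gut wall, regulated exocytosis of this kind is known from enteric neurons and from the hormone-secreting enteroendocrine cells of the epithelium. The family has 17 rows, Syt1 to Syt17, among the 27131 rows of the expression table. The 10 genes described here, Syt1, Syt3, Syt4, Syt5, Syt7, Syt8, Syt11, Syt12, Syt13 and Syt17, were chosen by name from that family with the measured differences between the groups known. Their differences between groups are therefore given as descriptions, with no p-value for any of them. Those that passed the threshold in a fit across all genes are counted below, but nothing is read from these counts. No numeric threshold for the choice was stated, and level does not separate the 10 genes from the 7 left out, since Syt6 averaged 0.744 FPKM in HIF2 libraries and Syt3 averaged 0.110.

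RNA was measured in whole colon tissue of untreated C57BL/6 mice, in 9 libraries labelled HIF2 and 9 labelled WT. The HIF2 mice are labelled as overexpressing HIF2, a transcription factor that hypoxia stabilises and whose gene is Epas1, in the colon, and the WT mice as Hif2a +/+. The altered Hif2a allele is spelled LSL in 1 part of the record and LFL in another, and the promoter or Cre that drives it, the animals' ages and whether each library is a separate mouse are not stated in those sources. P-values for genes outside the family therefore measure the spread between these libraries, which may be technical. Each group has replicates numbered 0 to 8. Values are FPKM, fragments scaled by transcript length and by library size, and differences are of log2(FPKM + 1), HIF2 minus WT, a scale that understates changes of low genes. Read depth is unknown, so no counting error could be given, and values well below 1 FPKM may rest on few fragments.

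The libraries were not alike within the HIF2 group. HIF2 replicates 6, 7 and 8 lay apart on the second principal component, at -50.9, -58 and -52, a component with 11.2% of the variance. HIF2 replicate 0 lay furthest out on the first component, with 22% of the variance, at 84.1 against 48.1 for the next library. It had the lowest weight, 0.229, in a fit that weighted each library. Its endothelial marker sum, 123 FPKM, was the highest of all 18 libraries, and its epithelial sum, 7070 FPKM, the lowest. In HIF2 replicates 0 to 5 the summed FPKM of 12 smooth muscle markers ran between 1390 and 3430, against between 69 and 181 in HIF2 replicates 6 to 8. It was 1120 in WT replicate 3 and between 34.3 and 182 in the other 8 WT libraries. The smooth muscle markers had 11 of 12 tested genes higher in HIF2, fibroblast and endothelial markers 10 of 10 each, and macrophage markers 8 of 9 (limma adjusted p under 0.05). Of these, 2 muscle, 5 endothelial and 1 macrophage gene averaged below 1 FPKM in WT, so that they reached the level for testing only through HIF2 and had to differ. Of the epithelial markers 5 of 10 were lower in HIF2. Over all 13976 genes tested, 11.0% were higher in HIF2 and 11.1% lower. Known HIF target genes also divided the HIF2 libraries. Their sum over 12 genes was 240 and 235 in HIF2 replicates 2 and 4, with the remaining 7 running between 1100 and 4760, against between 203 and 250 in WT. By HIF2 mean most of it is Slc11a2, Slc40a1, Egln3, Ankrd37 and Steap4, at 782, 445, 316, 245 and 205 FPKM. Of the 12 genes 9 were higher in HIF2, and Ndufa4l2 and Cybrd1 among them reached the level for testing only through HIF2. Car9, Vegfa and Pfkfb3 did not pass (limma adjusted p = 0.274, 0.266 and 0.569). Among these targets the iron transporter gene Slc11a2 was at 16.5 and 18.2 FPKM in HIF2 replicates 2 and 4 and between 229 and 2100 in the 7 others, against between 12.8 and 19.0 in WT. Epas1 itself lay between 16.6 and 35.9 FPKM in HIF2 and between 13.8 and 23.0 in WT. The main differences are given with and without HIF2 replicates 6 to 8 and HIF2 replicates 2 and 4 below. Without HIF2 replicate 0 the log2 difference was -0.986 for Syt7, 1.18 for Syt8 and 0.845 for Syt13.

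Promoter sequences of 3 members are shown because their levels followed different patterns over the libraries: Syt8 was high where HIF targets were high, and Syt1 and Syt11 were high where neuronal and muscle markers were high. Each is the run of 250 bases just before a RefSeq start site in GRCm38.p6, written 5′ to 3′ on the gene's strand, with CG dinucleotides in capitals. The Syt8 run is chr7:142434600-142434849 on the plus strand, the Syt11 run chr3:88772600-88772849 on the minus strand and the Syt1 run chr10:109010976-109011225 on the minus strand.
Syt8: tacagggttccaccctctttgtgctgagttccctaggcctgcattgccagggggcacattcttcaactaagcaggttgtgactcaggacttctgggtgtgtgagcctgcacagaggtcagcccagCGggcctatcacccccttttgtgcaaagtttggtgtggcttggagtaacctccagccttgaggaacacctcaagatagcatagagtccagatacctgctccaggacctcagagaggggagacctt
Syt11: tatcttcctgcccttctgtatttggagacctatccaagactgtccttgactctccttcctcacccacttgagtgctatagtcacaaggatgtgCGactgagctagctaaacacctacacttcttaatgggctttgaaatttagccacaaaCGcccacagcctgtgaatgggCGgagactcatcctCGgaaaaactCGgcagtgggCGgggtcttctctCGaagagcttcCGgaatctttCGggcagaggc
Syt1: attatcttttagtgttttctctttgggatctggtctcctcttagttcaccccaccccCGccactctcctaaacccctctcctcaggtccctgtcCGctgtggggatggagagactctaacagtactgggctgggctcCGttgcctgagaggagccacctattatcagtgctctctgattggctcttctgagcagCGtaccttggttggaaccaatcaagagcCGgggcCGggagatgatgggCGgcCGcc
The Syt8 run holds 1 CG, a number that 18.8% of 32817 such mouse promoter runs match or fall below. The Syt11 run holds 9 and the Syt1 run 8, against a median of 6. The run before a second Syt1 start site, at chr10:109009112-109009361 on the minus strand and not printed, holds 5. RefSeq runs were at hand for 4 of the 10 members, Syt1, Syt3, Syt8 and Syt11, with 7 start sites in all. Neither of the core letters of the hypoxia response element, ACGTG and GCGTG, searched on both strands, occurs in any of the 7 runs, and at least 1 of them occurs in 38.6% of all runs. TATAAA, also searched on both strands, occurs in none of the 7 and in 12.4% of all. These are statements about letters in these windows only.

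The family's transcript pool in the colon had a different make-up in the 2 groups. Summed over the 10 genes, the lowest, median and highest library held 17.0, 21.2 and 34.4 FPKM in HIF2, against 15.8, 18.5 and 20.5 FPKM in WT. Syt7 made up between 12.9% and 42.0% of that sum in HIF2 libraries, against between 60.2% and 80.2% in WT libraries, so a gene that held most of the pool in every WT library held less than that in each HIF2 library. By mean level the order in HIF2 was Syt7, Syt8, Syt13, Syt4, Syt11, Syt5, Syt1, Syt17, Syt12 and Syt3, and each neighbouring pair in it overlapped within 1 SD of both means. In WT the order was Syt7, Syt13, Syt5, Syt8, Syt11, Syt12, Syt17, Syt1, Syt3 and Syt4, where Syt7 stood clear of the next gene and the other neighbours overlapped.

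On the log2 scale 7 of the 10 genes were higher in HIF2 and 3 lower. A mean of at least 1 FPKM over all 18 libraries, the minimum for the fit across all genes, was reached by 5 of them, Syt5, Syt7, Syt8, Syt11 and Syt13. A gene that reached it only through the group where it is high had to differ. Syt8 and Syt11 averaged 0.996 and 0.676 FPKM in WT, so they reached it only through HIF2. Both are among the genes counted as higher next. Of the 5, 3 had a limma adjusted p under 0.05 on the higher side, against 11.0% of 13976 genes tested, and 1 on the lower side, against 11.1%. With upper-quartile scaling the genes called over the whole table numbered 2426 higher and 940 lower, against 1531 higher and 1557 lower without it, and the median of all genes moved by 0.102. All 9 HIF2 libraries lay above all 9 WT libraries for 1 of the 5, Syt13, against 0.758% of genes tested, and all below for 1, Syt7, against 1.27%. Of the members counted, Syt8 was not past the threshold without HIF2 replicates 6 to 8 or in an exact rank test, and Syt11 not with either the smooth muscle or the enteric neuron covariate. Since the genes were chosen with this contrast known, nothing is read from these counts.

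**Figure D1:**
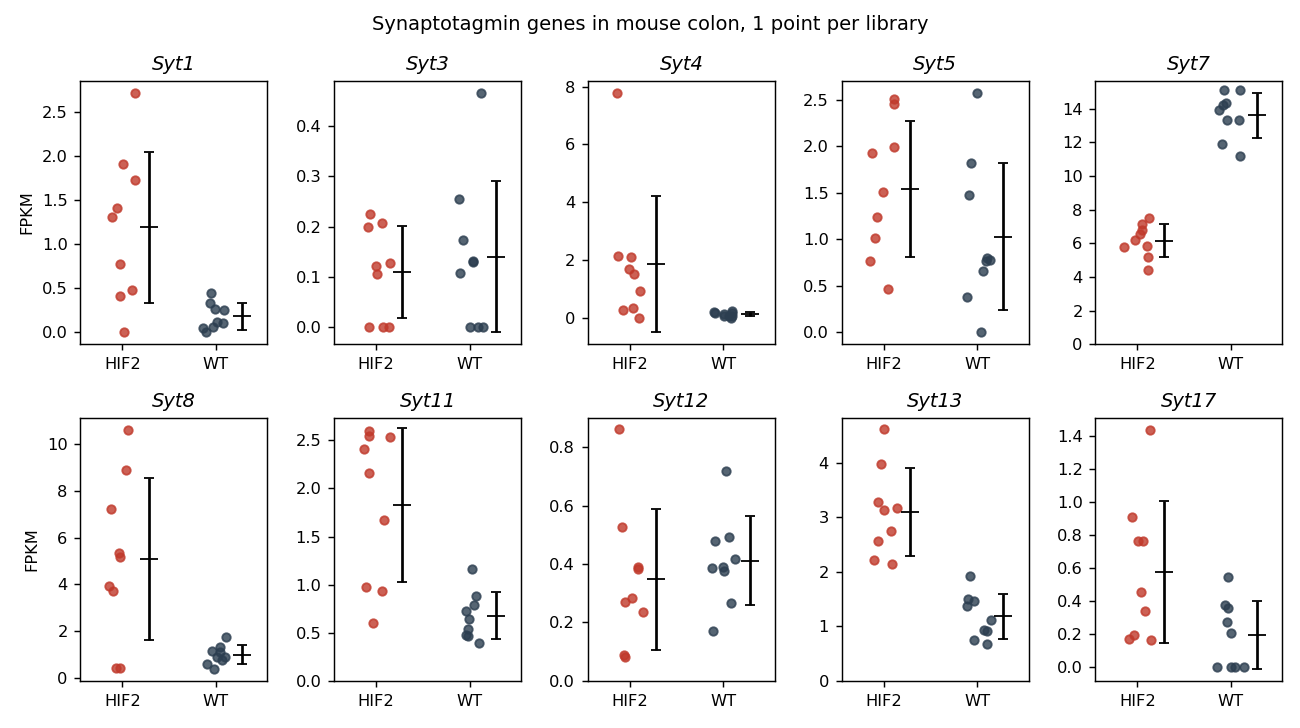
FPKM of the 10 synaptotagmin genes in each library, with HIF2 libraries (red) left of WT libraries (dark blue) in each panel; horizontal bars and whiskers are the mean and SD of 9 libraries, and each panel has its own vertical scale. Syt7 lies at 4.43 to 7.5 FPKM in HIF2 and 11.2 to 15.1 in WT, and Syt13 at 2.14 to 4.63 in HIF2 and 0.674 to 1.92 in WT, without overlap.

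Among the calcium sensors of the family, Syt7 was the most abundant in both groups and the member with the clearest difference. Syt7 (chromosome 19, 10389090 to 10453180, GRCm38, plus strand) encodes a high-affinity sensor known for slow and sustained secretion, hormone granule release and lysosome exocytosis. Its lowest, median and highest HIF2 library stood at 4.43, 6.21 and 7.5 FPKM, against 11.2, 13.9 and 15.1 FPKM in WT. Every HIF2 library lay below every WT library. The means were 6.16 ± 0.97 FPKM in HIF2 and 13.6 ± 1.35 in WT (SD, n = 9 each), so the HIF2 mean was 45.3% of the WT mean, a log2 difference of -1.03 (SE 0.09).

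The lower Syt7 level was found in every subset of libraries looked at. The log2 difference was -1.03 without HIF2 replicates 6 to 8 and -1.07 without HIF2 replicates 2 and 4. It was -1.09 in HIF2 replicates 6 to 8 against WT without replicate 3, where the smooth muscle sums of both sides lay at or below 182 FPKM. Those 3 HIF2 libraries had the Y-linked gene Ddx3y at or below 0.217 FPKM, whereas WT held libraries with and without it, so sex was not balanced in that subset. With the smooth muscle markers as a covariate the difference was -1.03, and with enteric neuron markers, a covariate added after the data were seen, it was -0.93. In bulk tissue fewer cells of a type and less RNA per cell cannot be told apart, here and for the genes below. Within HIF2 replicates 0 to 5, Syt7 was lower the higher the enteric neuron marker sum was, an order noticed after the values were seen. It was 7.5 FPKM in replicate 5 with a neuron sum of 57.1, 6.77 in replicate 4 with 82.5, and 4.43 in replicate 0 with 201. Of the 10 epithelial markers, the 5 called lower in HIF2 are on the side of Syt7 by that choice. Their HIF2 means were 65.6% of the WT mean for Krt20, 66.1% for Cdx2, 69.7% for Cdx1, 77.3% for Vil1 and 77.4% for Cdh1. The other 5 were not called. Their HIF2 means were 88.8% of the WT mean for Epcam, 95.3% for Cdh17, 98.2% for Lgals4, 104% for Krt8 and 111% for Krt19. The summed epithelial list, most of which is Krt8, Krt19 and Lgals4, lay between 7070 and 11400 FPKM in HIF2 and between 7130 and 10400 in WT. The part of these genes in the Syt7 values was not tested.

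Genes whose library-to-library course was most like that of Syt7, by Pearson's r of log2 values over 18 libraries after taking out each group's mean, were Scnn1a, Tmem63a and Pik3r3, with r of 0.827, 0.820 and 0.814. Scnn1a, which encodes a subunit of the epithelial sodium channel, averaged 12.2 FPKM in HIF2 and 24.2 in WT. Tmem63a averaged 21.8 FPKM in HIF2 and 32.8 in WT. These r values, like those below, are descriptions picked as the highest among all genes tested, over libraries that share their preparation. The annotation places the lincRNA Gm26859 on the other strand of the Syt7 locus, and the library kit does not mark strand.

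Syt1, the sensor of fast synaptic release and a hallmark of synaptic vesicles, was low in colon as a whole and higher in most HIF2 libraries. Syt1 (chromosome 10, 108497650 to 109010982, minus strand) stood at 0, 1.31 and 2.72 FPKM in the lowest, median and highest HIF2 library, against 0, 0.113 and 0.446 FPKM in WT. In 7 of 9 HIF2 libraries it lay above the highest WT library. HIF2 replicates 0 to 4 held between 1.31 and 2.72 FPKM, replicate 5 held 0.772, and replicates 6, 7 and 8 held 0.477, 0.416 and 0. The means were 1.19 ± 0.859 FPKM in HIF2 and 0.18 ± 0.149 in WT (SD, n = 9 each), a log2 difference of 0.80.

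Syt4 and Syt11 form a related pair whose first C2 domain lacks a calcium-binding residue, and both are known from neurons, where Syt4 rides on dense core vesicles and Syt11 is known for limiting endocytosis. Syt4 (chromosome 18, 31437808 to 31447406, minus strand) stood at 0, 1.5 and 7.78 FPKM in the lowest, median and highest HIF2 library, against 0, 0.133 and 0.234 in WT. In 8 of 9 HIF2 libraries it exceeded every WT library, and HIF2 replicate 0 alone held 7.78 FPKM where the next HIF2 library held 2.15. Its means were 1.86 ± 2.36 FPKM in HIF2 and 0.124 ± 0.0749 in WT (SD, n = 9 each), a log2 difference of 1.04. Without HIF2 replicate 0 the Syt4 difference was 0.80. The antisense transcript Gm26658 overlaps the locus, and its reads cannot be told apart from those of Syt4.

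Syt11 (chromosome 3, 88744700 to 88775164, minus strand), whose promoter run is shown above, stood at 0.606, 2.16 and 2.6 FPKM in the lowest, median and highest HIF2 library, against 0.397, 0.647 and 1.16 in WT. In HIF2 replicates 0 to 5 it lay above every WT library, at 1.67 to 2.6 FPKM, while replicates 6, 7 and 8 lay within the WT range at 0.936, 0.971 and 0.606. Its means were 1.83 ± 0.799 FPKM in HIF2 and 0.676 ± 0.243 in WT (SD, n = 9 each), a log2 difference of 0.71 (SE 0.17). The genes most like it over the libraries were Mtap1b, Tubb3 and Tmod2, with r of 0.944, 0.942 and 0.940 over 18 libraries. Mtap1b encodes a neuronal microtubule-associated protein, and Tubb3, the neuronal beta-tubulin, is itself on the enteric neuron list.

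The levels of Syt1, Syt4 and Syt11 ran together with the enteric neuron markers. Of 16 such markers 10 reached the level for testing and 9 were higher in HIF2, against 11.0% of all genes tested. Of the 9, 7 averaged below 1 FPKM in WT, reached that level only through HIF2 and had to differ, so nothing is read from the count. Elavl3 and Chat were below 1 FPKM in every library. The 16 genes summed to 201, 101, 94.7, 111, 82.5 and 57.1 FPKM in HIF2 replicates 0 to 5 and to 17.8, 18.9 and 7.27 in HIF2 replicates 6, 7 and 8, against between 7.86 and 17.8 in WT. By HIF2 mean most of the sum is Vip, Tac1 and Uchl1, at 21.9, 17.2 and 9.98 FPKM, against 1.06, 5.96 and 1.26 in WT. Tac1 was the tested marker that was not called (limma adjusted p = 0.111). The highest WT value of that sum, of Syt1 and of Syt11 was in each case in WT replicate 3, the WT library with 1120 FPKM of smooth muscle markers. Syt4 differed, with its highest WT value, 0.234 FPKM, in WT replicate 4 and 0.205 in WT replicate 3. The plot of levels against summed lists gives these values library by library.

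**Figure D2:**
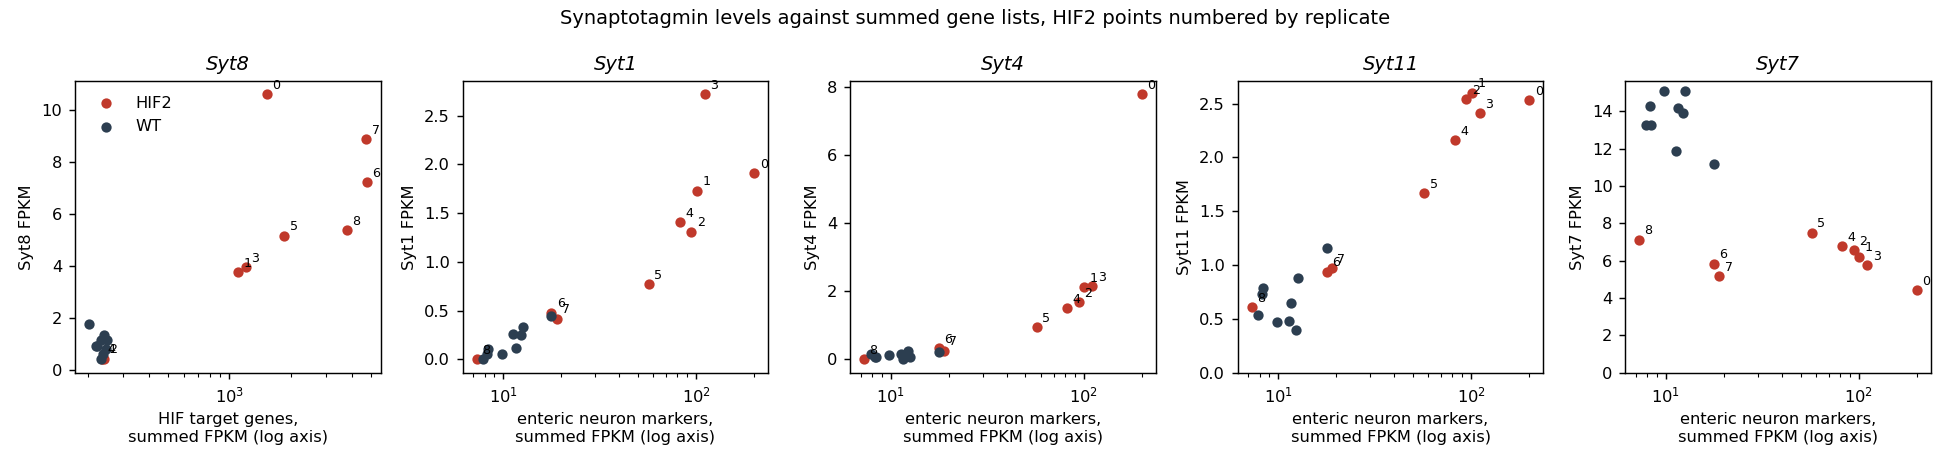
Level of 5 synaptotagmin genes (FPKM, vertical) against the summed FPKM of a gene list (horizontal, log axis), the HIF target genes for Syt8 and the enteric neuron markers for the others; red points are HIF2 libraries, numbered by replicate, and dark blue points WT libraries. Syt8 is low in HIF2 replicates 2 and 4, whose HIF target sums of 240 and 235 lie in the WT range; Syt1, Syt4 and Syt11 climb with the neuron sum; Syt7 lies lower in each HIF2 library than in any WT library, whatever the neuron sum.

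The differences of these 3 genes depended on which libraries were compared. Without HIF2 replicates 6 to 8 the log2 difference was 1.14 for Syt1, 1.52 for Syt4 and 0.99 for Syt11. In HIF2 replicates 6 to 8 against WT without replicate 3 it was 0.16 for Syt1, 0.09 for Syt4 and 0.19 for Syt11. With the smooth muscle covariate the values were 0.27, 0.42 and 0.23 in the same order of genes, and with the enteric neuron covariate -0.05, -0.22 and 0.04. The covariates were taken from the same libraries, and markers of nerve and muscle were both high in HIF2 replicates 0 to 5, so more of these tissues in a library and more of these transcripts per cell cannot be told apart.

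Syt8 behaved differently from the neuronal members. Syt8 (chromosome 7, 142434850 to 142440396, plus strand) encodes a member that lacks the calcium-binding residues, and its human counterpart is known from pancreatic islets. It stood at 0.416, 5.15 and 10.6 FPKM in the lowest, median and highest HIF2 library, against 0.394, 0.911 and 1.75 in WT. In 7 of 9 HIF2 libraries, at 3.74 to 10.6 FPKM, it lay above every WT library, and HIF2 replicates 2 and 4, at 0.416 and 0.426 FPKM, lay within the WT range. The means were 5.08 ± 3.46 FPKM in HIF2 and 0.996 ± 0.402 in WT (SD, n = 9 each), a log2 difference of 1.33 (SE 0.36).

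HIF2 replicates 2 and 4 were also the HIF2 libraries in which the HIF target sum lay within the WT range. Without them the Syt8 difference was 1.85. HIF2 replicates 6 to 8, which held the highest HIF target sums at 3790 to 4760 FPKM, had Syt8 at 7.21, 8.87 and 5.36 FPKM, although the highest Syt8 level was in replicate 0, whose HIF target sum was 1530. The Syt8 log2 difference was 2.09 in HIF2 replicates 6 to 8 against WT without replicate 3, and 0.98 without HIF2 replicates 6 to 8. With the smooth muscle covariate it was 1.77 and with the enteric neuron covariate 1.74.

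The genes most like Syt8 over the libraries were Ptges, Wfdc13 and Marcksl1, with r of 0.935, 0.929 and 0.927 over 18 libraries. Ptges, an enzyme that makes prostaglandin E, averaged 17.6 FPKM in HIF2 and 1.07 in WT. Marcksl1, an actin-regulating protein, averaged 30.6 FPKM in HIF2 and 8.57 in WT, and Wfdc13 averaged 10.8 in HIF2 and 0.0375 in WT. Within the groups the r of Ptges was 0.982 over the 9 HIF2 libraries and -0.301 over the 9 WT libraries, where Syt8 varied little.

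Syt13 was higher in every HIF2 library. Syt13 (chromosome 2, 92915098 to 92956058, plus strand) encodes a member without calcium-binding residues that marks endocrine precursors of the mouse pancreas. It stood at 2.14, 3.13 and 4.63 FPKM in the lowest, median and highest HIF2 library, against 0.674, 1.12 and 1.92 in WT, without overlap. The means were 3.10 ± 0.811 FPKM in HIF2 and 1.19 ± 0.41 in WT (SD, n = 9 each), a log2 difference of 0.90 (SE 0.13). Syt13 kept a positive difference in the same subsets as Syt7, at 0.87 without HIF2 replicates 6 to 8, 0.99 in HIF2 replicates 6 to 8 against WT without replicate 3, and 0.89 without HIF2 replicates 2 and 4. With the smooth muscle covariate it was 0.90 and with the enteric neuron covariate 0.80. Unlike Syt8, it was above WT in HIF2 replicates 2 and 4, at 3.28 and 3.13 FPKM.

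Enteroendocrine markers gave a mixed picture beside Syt7 and Syt13. Of 18 markers 9 could be tested, of which Cck and Sst were higher in HIF2 and Tph1 and Nts lower. These are 2 of 9 on each side, against 11.0% of all genes tested on the higher side and 11.1% on the lower. The hormone gene Sst averaged 20.7 ± 8.97 FPKM in HIF2 and 7.11 ± 3.65 in WT, and Nts averaged 17.5 ± 7.89 in HIF2 and 30.9 ± 8.70 in WT (SD, n = 9 each). The 18 genes summed to between 210 and 461 FPKM in HIF2 replicates 0 to 5 and to 810, 799 and 689 in HIF2 replicates 6, 7 and 8, against between 273 and 519 in WT. By group mean most of that sum is Pyy and Insl5, neither of which was called. They averaged 222 and 123 FPKM in HIF2 and 133 and 91.8 in WT. The part of the 18 markers in the levels of Syt7 and Syt13 was not tested. The genes most like Syt13 over the libraries, Pmpca, Rhog and Dis3, had r of 0.784, 0.756 and 0.745. Their means were 12.4 FPKM in HIF2 and 13.0 in WT for Pmpca, 10.4 in HIF2 and 11.0 in WT for Rhog, and 6.70 in HIF2 and 5.89 in WT for Dis3.

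The remaining members were low or varied too much to separate the groups. Syt5 (chromosome 7, 4539765 to 4547541, minus strand), a calcium-binding member, stood at 0.466, 1.51 and 2.51 FPKM in the lowest, median and highest HIF2 library, against 0, 0.773 and 2.57 in WT. Its means of 1.54 ± 0.729 FPKM in HIF2 and 1.03 ± 0.79 in WT (SD, n = 9 each) differed by 0.36 on the log2 scale (SE 0.23), and the groups overlapped over most of their range. The Syt5 difference was -0.03 in HIF2 replicates 6 to 8 against WT without replicate 3 and -0.08 with the smooth muscle covariate. The genes most like Syt5 were Sned1, Ints8 and Ehbp1, with r of 0.880, 0.830 and 0.822.

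Syt17 (chromosome 7, 118380717 to 118448222, minus strand), a member with no transmembrane segment that is known from the Golgi, stood at 0.167, 0.455 and 1.44 FPKM in the lowest, median and highest HIF2 library, against 0, 0.204 and 0.545 in WT. It was listed at 0 in 4 WT libraries and in no HIF2 library. The log2 difference of 0.38 was 0.08 in HIF2 replicates 6 to 8 against WT without replicate 3 and 0.07 with the smooth muscle covariate.

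Syt12 (chromosome 19, 4445908 to 4477447, minus strand), a member that binds no calcium, averaged 0.347 ± 0.24 FPKM in HIF2 and 0.411 ± 0.153 in WT (SD, n = 9 each). Syt3 (chromosome 7, 44384102 to 44400187, plus strand), a calcium sensor known from neurons and islets, ran from 0 to 0.226 FPKM in HIF2 and from 0 to 0.466 in WT. It was listed at 0 in 3 libraries of each group, and no difference beyond the spread between libraries was visible at these levels. Both genes overlap a transcript on the other strand, A930001C03Rik at Syt12 and 1700008O03Rik at Syt3.

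The 7 synaptotagmin rows left out of the choice were all below a mean of 1 FPKM, and 6 of them were higher in HIF2 on the log2 scale. Syt6 averaged 0.744 FPKM in HIF2 and 0.293 in WT, Syt15 averaged 0.612 in HIF2 and 0.294 in WT, and Syt14 averaged 0.584 in HIF2 and 0.345 in WT. Syt2, the close relative of Syt1, was the one lower in HIF2, at 0.280 FPKM against 0.467 in WT.

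**Figure D3:**
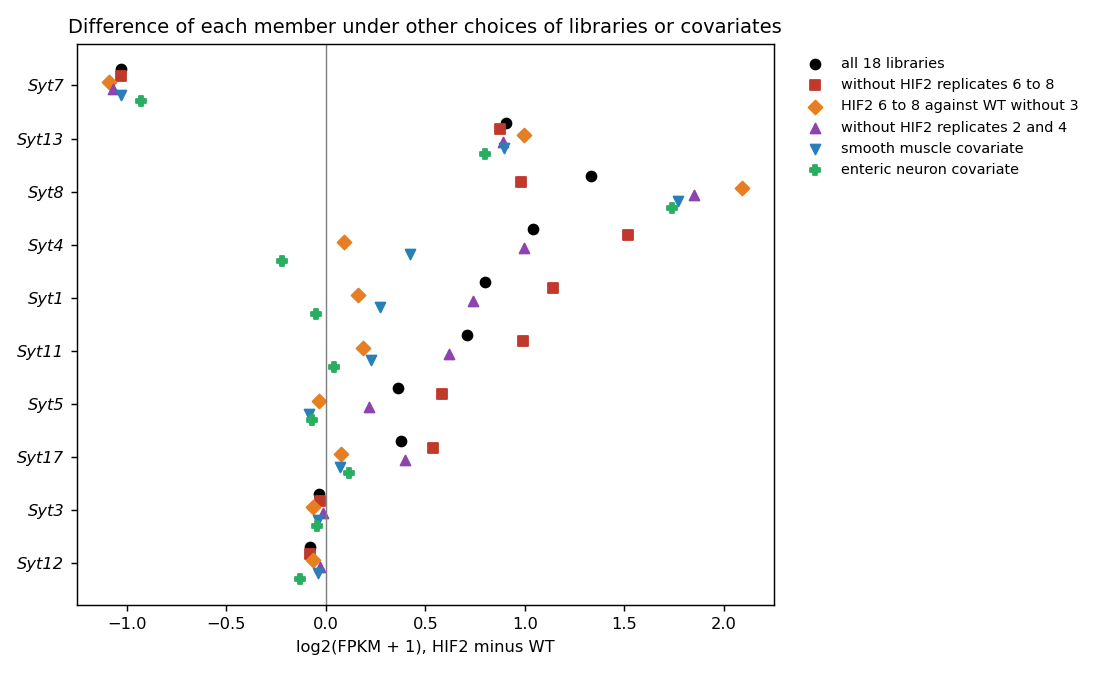
Log2 difference (HIF2 minus WT) of each of the 10 genes with all 18 libraries (black) and under 5 other choices of libraries or covariates (coloured symbols). Syt7, Syt13 and Syt8 keep their sides under each choice shown, at -1.09 to -0.93, 0.80 to 0.99 and 0.98 to 2.09, while Syt1, Syt4 and Syt11 lie near 0 in HIF2 replicates 6 to 8 against WT without replicate 3 and with the enteric neuron covariate.

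The other genes of the exocytic pathway were not used to choose the 10 and were tested across the whole table with limma. Of 98 listed genes 97 matched a row and 60 were tested, of which 13 (21.7%) rose and 10 (16.7%) fell in HIF2, with a median log2 difference of 0.04, against 11.0% and 11.1% and a median of -0.02 over all genes tested. Of the 13, 5 averaged below 1 FPKM in WT (Stx2, Syngr1, Slc17a8, Scg3 and Ptprn), reached the level for testing only through HIF2 and had to differ, so the count and the medians are descriptions. The shares describe these lists, which were drawn up with earlier results known, and no test of the lists was made. Exocytosis genes that rose numbered 8 without HIF2 replicate 1 and 7 without HIF2 replicate 3. The lists yielded 20 named genes that passed, of which 8 did so with the smooth muscle covariate and 5, Scg2, Ptprn2, Syngr2, Snap47 and Rph3al, with the enteric neuron covariate. In HIF2 replicates 6 to 8 against WT without replicate 3, 9 of the 20 passed. P-values below are limma p-values adjusted over all genes tested, which are 13976 for the comparison of all libraries and differ slightly where libraries were left out.

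**Figure D4:**
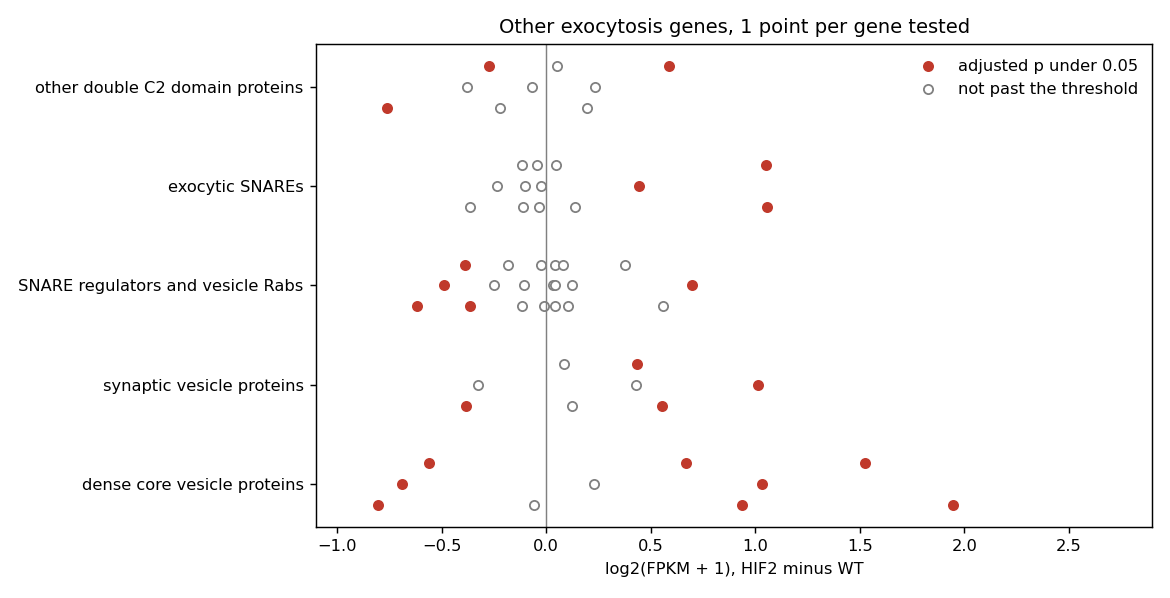
Log2 difference (HIF2 minus WT, horizontal) of the 60 tested genes of 5 exocytosis lists, 1 point per gene; filled red points had a limma adjusted p under 0.05 and open grey points did not. Filled points lie on both sides of 0, with the furthest at 1.95 for Scg2 and at -0.80 for Ptprn2, both dense core vesicle genes.

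Among cargo and membrane proteins of dense core vesicles, the granules of neurons and endocrine cells, 5 of 10 tested genes rose and 3 fell, with a median of 0.45. The granin Scg2 stood at 2.21, 9.48 and 16.2 FPKM in the lowest, median and highest HIF2 library, against 0.634, 1.18 and 1.69 in WT, so that every HIF2 library lay above every WT library. Scg2 rose by 1.95 (SE 0.29, adjusted p = 0.000201), by 0.71 with the enteric neuron covariate (adjusted p = 0.0226) and by 0.92 in HIF2 replicates 6 to 8 against WT without replicate 3 (adjusted p = 0.0121). The granule protein gene Scg5 rose by 0.94 (adjusted p = 0.000485), and had an adjusted p of 0.0817 with the enteric neuron covariate. The granin Scg3 averaged 3.23 ± 1.69 FPKM in HIF2 and 0.938 ± 0.304 in WT (SD, n = 9 each), a difference of 1.03. In HIF2 replicates 6 to 8 against WT without replicate 3 the Scg3 difference was 0.39 (adjusted p = 0.181).

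In the other direction, the granule membrane phosphatase homologue Ptprn2 stood at 5.32, 8.35 and 12.6 FPKM in the lowest, median and highest HIF2 library, against 12.9, 15.7 and 18.7 in WT. It fell by 0.80 (SE 0.12, adjusted p = 0.000194), with no overlap between the groups, and kept its call under both covariates. The granins Chga and Chgb, marker proteins of enteroendocrine granules, averaged 23.4 ± 9.52 and 34.4 ± 13.3 FPKM in HIF2, against 36.5 ± 8.27 and 49.2 ± 10.1 in WT (SD, n = 9 each). Chga had an adjusted p of 0.0232 and Chgb of 0.0446. In HIF2 replicates 6 to 8 against WT without replicate 3 the adjusted p was 0.902 for Chga and 0.932 for Chgb. The Chgb call was also lost without any 1 of HIF2 replicates 0, 1, 2, 3, 4 and 5 or WT replicates 1, 2, 4, 5, 6 and 7, with an adjusted p of up to 0.0815. Dense core vesicle genes thus moved in both directions, with Scg2 and Ptprn2 the clearest on each side.

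Of the regulators of SNARE assembly and the vesicle Rab proteins, 1 of 20 tested genes rose and 4 fell, with a median of 0.01. Rab3d, a small GTPase of secretory granules in exocrine and other epithelial cells, stood at 13.3, 24.0 and 27.8 FPKM in the lowest, median and highest HIF2 library, against 31.3, 34.8 and 43.2 in WT. It fell by 0.62 (SE 0.11, adjusted p = 0.000713), all 9 HIF2 libraries lying below WT, and had an adjusted p of 0.0851 with the enteric neuron covariate. Stxbp2, the SNARE-binding Munc18 protein of non-neuronal secretion, fell by 0.37 (adjusted p = 0.00226). Its adjusted p was 0.0843 with the smooth muscle covariate and 0.235 in HIF2 replicates 6 to 8 against WT without replicate 3. The granule-priming gene Cadps2 had a mean of 22.7 FPKM in HIF2 against 29.6 in WT (adjusted p = 0.025). The Cadps2 difference was -0.39 with all libraries and -0.10 once smooth muscle markers were a covariate (adjusted p = 0.63). Set against WT without replicate 3, HIF2 replicates 6 to 8 gave -0.11 (adjusted p = 0.333). Its adjusted p was 0.0573 with upper-quartile scaling and 0.0512 without HIF2 replicate 3. Napb, the neuronal SNAP adaptor for SNARE recycling, was the gene that rose, by 0.70 (adjusted p = 0.00372). The Napb difference was 0.32 once smooth muscle markers were a covariate (adjusted p = 0.178). Set against WT without replicate 3, HIF2 replicates 6 to 8 gave 0.26 for Napb (adjusted p = 0.349).

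Among the exocytic SNAREs themselves, the partners on which synaptotagmins act, 3 of 13 tested genes rose and the median was -0.03. Snap25, the plasma membrane SNARE of neurons and endocrine cells, stood at 0.502, 4.10 and 7.52 FPKM in the lowest, median and highest HIF2 library, against 0.312, 1.07 and 2.38 in WT. It held between 4.10 and 7.52 FPKM in HIF2 replicates 0, 1, 2, 3 and 5, but 1.88 in HIF2 replicate 4 and 0.502, 1.60 and 0.879 in HIF2 replicates 6, 7 and 8, against a highest WT value of 2.38 in WT replicate 3. Snap25 rose by 1.05 (SE 0.33, adjusted p = 0.0276), but was at -0.20 with the enteric neuron covariate, and its adjusted p was between 0.0501 and 0.057 without HIF2 replicate 1, HIF2 replicate 3, WT replicate 0 or WT replicate 1. Stx2, a plasma membrane syntaxin, averaged 2.17 ± 1.04 FPKM in HIF2 and 0.475 ± 0.397 in WT (SD, n = 9 each), a difference of 1.06 that was 0.40 with the smooth muscle covariate. The third, Snap47, had an adjusted p of 0.0426, of 0.19 without HIF2 replicates 6 to 8 and 0.0896 without HIF2 replicates 2 and 4, and of up to 0.0815 when any 1 of 13 libraries was left out, namely HIF2 replicates 1, 2, 3, 4, 6, 7 and 8 and WT replicates 0, 1, 2, 3, 7 and 8. The Snap47 difference was 0.442 with all libraries. In HIF2 replicates 6 to 8 against WT without replicate 3 it was 0.699 (adjusted p = 0.0136). The neuronal syntaxin gene Stx1a was too low to be tested, at 1.18 FPKM in HIF2 and 0.634 in WT. The vesicle SNARE gene Vamp2 averaged 7.59 FPKM in HIF2 and 9.44 in WT, a difference of -0.363 (adjusted p = 0.192). Its difference depended on the libraries and covariates. It was -0.952 in HIF2 replicates 6 to 8 against WT without replicate 3 (adjusted p = 0.000573). Without HIF2 replicates 6 to 8 it was -0.0564 (adjusted p = 0.823). With the smooth muscle covariate it was -0.795 (adjusted p = 0.0124), and with the enteric neuron covariate -1.1 (adjusted p = 0.000367).

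Synaptic vesicle proteins were mostly low, with 8 of 22 reaching the level for testing, of which 3 rose and 1 fell. The glutamate transporter gene Slc17a8 averaged 1.99 ± 1.97 FPKM in HIF2 and 0.256 ± 0.159 in WT (SD, n = 9 each), and the neuronal synaptogyrin gene Syngr1 averaged 1.49 ± 0.812 in HIF2 and 0.637 ± 0.312 in WT. Slc17a8 had an adjusted p of 0.0162, and of 0.0578 with the enteric neuron covariate. Syngr1 had 0.041, and 0.51 and 0.8 with the smooth muscle and enteric neuron covariates. The Syngr1 call was also lost without any 1 of HIF2 replicates 0 and 1 and WT replicates 0, 2, 3, 5, 7 and 8, with an adjusted p of up to 0.0711. Quantile normalization of the libraries gave 0.0544 for Slc17a8 and 0.189 for Syngr1. The fall was in Syngr2, a synaptogyrin found outside neurons, at 49.6 ± 5.02 FPKM in HIF2 and 65.1 ± 6.91 in WT (SD, n = 9 each, adjusted p = 0.0014). The monoamine transporter gene Slc18a2 passed with an adjusted p of 0.0318. Its call was lost without any 1 of HIF2 replicates 0, 1, 2 and 3 and WT replicates 1, 4, 6 and 8, with an adjusted p of up to 0.0618, and in HIF2 replicates 6 to 8 against WT without replicate 3 (adjusted p = 0.497).

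Of the 9 tested genes on the list of relatives, most but not all of which have tandem C2 domains, 1 rose and 2 fell. Sytl1, a synaptotagmin-like protein that binds Rab27 on granules, averaged 14.7 ± 4.35 FPKM in HIF2 and 24.6 ± 5.35 in WT (SD, n = 9 each), and fell by 0.76 (SE 0.22, adjusted p = 0.0182). With the smooth muscle covariate its adjusted p was 0.229. The other pair, Sytl2 on the lower side and Rph3al on the higher, passed with adjusted p of 0.0369 and 0.0451. Rph3al, the gene that rose, is a rabphilin relative that lacks the C2 domains. The Sytl2 call was lost without any 1 of HIF2 replicates 0, 6 and 7 and WT replicates 0, 1, 2, 4, 5 and 8, with an adjusted p of up to 0.0748, and without HIF2 replicates 6 to 8 (adjusted p = 0.13). The Rph3al call was lost without any 1 of HIF2 replicates 1, 3, 5, 6, 7 and 8 and WT replicates 0, 1, 5, 6, 7 and 8, with an adjusted p of up to 0.0818, and without HIF2 replicates 6 to 8 (adjusted p = 0.254).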

How the data were processed

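The deposited values were FPKM, 1 column per library for 27131 rows, and all 18 columns were used. Tools listed in the submitters' processing notes, without roles or order, are Cufflinks, Cuffdiff 2.1.1, TopHat, TopHat2 2.0.9, Bowtie2 2.1.0.0 and FastQC, and the build is mm10. Per the labels' protocols, libraries of polyadenylated RNA from fresh or frozen tissue were made with the TruSeq kit v2, which does not mark strand. Column sums ran from 686539 to 937505. Read depth is unknown, so precision rests on the 9 libraries per group.

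Values were analysed as log2(FPKM + 1). Genes with a mean of at least 1 FPKM, 13976 in all, were fitted in R 4.3.3 by limma 3.58.1 (2-sided, trended prior), with Benjamini-Hochberg adjustment at 0.05. The procedure was tested on simulated data. The members and all lists were chosen with earlier results of these data known. From each exocytosis list up to 3 called genes per direction were named by smallest p, besides Snap25, Stx1a and Vamp2, and 3 genes most like each tested member, leaving out predicted genes and small RNAs. Alternatives were another pseudocount, filter, scaling or test, a weight for each library, a replicate block, covariates, and libraries left out. The enteric neuron covariate was added after the data were seen. Stxbp3 and Adgre1 were matched under Stxbp3a and Emr1. Coordinates are 1-based from GENCODE M21 on GRCm38, the assembly of mm10. Figures were drawn with matplotlib 3.10.9.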

Additional observations from a re-analysis of the deposited data

Results flagged for a closer look

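Syt4 in HIF2 replicate 0, at 7.78 FPKM, stood far from the other 8 HIF2 libraries, the next of which was at 2.15 FPKM. The gap was 0.724 of the group's whole range, above Dixon's 95% critical value for 9 libraries. The same library had the highest enteric neuron marker sum, 201 FPKM, and the highest Syt8 and Syt13 levels, 10.6 and 4.63 FPKM. It also had the lowest Syt7 level, 4.43 FPKM, the highest endothelial marker sum, 123 FPKM, and the lowest epithelial sum, 7070 FPKM. In all, 20 groups were looked at, 10 genes in 2 groups, and chance flags about 1 in 20. The FPKM scale was settled on after values on the log2 scale had been seen, on which 0 of the 20 groups had such a library.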

How the results depend on the processing

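Syt7 lay lower and Syt13 and Syt8 higher in HIF2 under each alternative that gave them a value. Over all genes, genes higher in HIF2 numbered 640 with a filter at a mean of 5 FPKM, 2407 with no filter, 2426 with upper-quartile scaling, 958 with the smooth muscle covariate and 990 with the enteric neuron covariate, and genes lower numbered 940, 1026 and 920 under the last 3. Members called higher by limma numbered 0 at the filter of 5, which left only 1 member, Syt7, to be tested, and 5 with no filter. Exocytosis genes higher numbered 3 at the filter of 5, 20 with no filter, 8 and 5 with the smooth muscle and neuron covariates and 6 in HIF2 replicates 6 to 8 against WT without replicate 3, and those lower 6 with upper-quartile scaling and with either covariate. Leaving out single libraries gave 1282 to 1661 genes higher and 1336 to 1657 lower, 3 to 4 members higher and 1 lower, and 7 to 12 exocytosis genes higher and 7 to 11 lower, with 8 higher without HIF2 replicate 1 and 7 without HIF2 replicate 3. With the enteric neuron covariate the log2 difference reversed for Snap25 (-0.20), Cadps2 (0.0709), Chga (0.13) and Chgb (0.14), and 5 of 20 named called genes kept their call, against 8 with smooth muscle markers. The causes were not tested. The replicate numbers mark no shared source in the labels, same-numbered libraries had correlations of -0.0333 to 0.112, and 1 of 9 matched its own number best. With the replicate block 1355 genes were higher and 1345 lower, with 3 and 1 members and 10 and 8 exocytosis genes. Depth is unknown, so how it limits members below 1 FPKM could not be assessed.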
